A study of Arabidopsis thaliana with 4 samples.

Results

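Cytosine methylation in Arabidopsis has to be copied onto new DNA each time a cell replicates its genome, and it can also be removed by base excision. The 10 genes described here encode the machinery for both tasks. *MET1*, *VIM1* and *VIM3* act in methylation at CG sites, and *DDM1* opens heterochromatin to the methyltransferases. *CMT3*, *KYP*, *CMT2* and *DRM2* act in methylation outside CG, and the DNA glycosylases *ROS1* and *DME* in removal. The 10 genes were chosen for their known function, with earlier results of these data known, and were matched by gene identifier. All 10 were found among the 33476 annotations of the deposited FPKM table (a fragment level scaled to transcript length and library size). Transcript levels were measured by poly-A mRNA-Seq in 4 libraries, 2 of dividing tissue (the meristem with younger leaves) and 2 of non-dividing tissue, for which the oldest 4 to 6 leaves were taken. The plants were of the Columbia strain and were first stratified for 5 days at 4°C in the dark. They were then grown for 4 weeks in short days of 8 h light and 16 h dark at 20 to 22°C. Each tissue was represented by one library from the HTR5-GFP line and one from the HTR13-GFP line, which carry a GFP fusion of an H3.3 gene or of an H3.1 gene, each under its own promoter. Every library therefore came from a transgenic plant, with no library of untransformed plants, and replicates within a tissue differed in transgene. The p-values below measure the spread between these libraries only.

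The tissue labels were checked against marker genes. The meristem genes *STM* and *KNAT1* were at 20.7 and 21.6 FPKM and at 10.4 and 10.7 FPKM in dividing tissue, and both were listed at 0 in both non-dividing libraries. *WUS* and *CLV3*, which mark a few cells at the centre of the shoot meristem, were listed at 0 in all 4 libraries. The 4 markers of dividing cells (*CYCB1;1*, *CDKB2;1*, *KNOLLE* and *AUR1*) were all higher in dividing tissue, with a summed level of 68.8 and 67.7 FPKM, against 3.60 and 5.02 FPKM in non-dividing tissue, and *CYCB1;1* was listed at 0 in 1 non-dividing library. Of the mature leaf genes, *CA1* was lower in dividing tissue (388 and 427 FPKM, against 836 and 824 FPKM in non-dividing tissue), while *RBCS1A* did not pass the test (log2 fold change 0.06). The senescence gene *SAG12*, the flower genes *AP1* and *AP3* and the root gene *PLT1* were listed at 0 in all 4 libraries. Other markers of the same kinds were not. The senescence gene *SAG13* was above 0 in all 4 libraries, at 4.89 and 2.82 FPKM in non-dividing tissue. The root gene *WOX5* was at 1.03 and 0.982 FPKM in dividing tissue, and the flower gene *AG* at 0.273 FPKM in 1 non-dividing library. The number of reads behind each value is unknown, because FPKM values do not keep it.

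In plants, methylated cytosines occur in 3 sequence contexts, CG, CHG and CHH, where H is any base but G. CG methylation is restored on the new strand after replication by MET1, guided by VIM proteins that recognise half-methylated CG sites. CHG methylation is kept by CMT3, which binds the histone mark H3K9me2 that KYP deposits on nucleosomes over methylated DNA, so that the marks maintain each other. CHH sites are asymmetric and must be methylated anew, by CMT2 in long heterochromatic transposons and by DRM2 under the guidance of small RNAs. The ROS1 and DME glycosylases excise methylated cytosines and leave a gap for repair enzymes to fill. Maintenance at CG sites is thus tied to DNA replication, whereas excision is not.

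The 10 genes lie on 4 of the chromosomes, with 6 on chromosome 5, 2 on chromosome 1 and 1 each on chromosomes 2 and 4, and none overlaps another annotation. Their annotated spans (TAIR9) ran from 3429 bp for *VIM3* to 9209 bp for *DME*, with a median of 5005 bp, against a median of 2228 bp over 17493 protein-coding annotations tested. Because genes that work in DNA replication often carry binding sites of E2F transcription factors near their start, the 300 bases from 250 before to 50 after each RefSeq TAIR10.1 gene start were searched, on both strands, for 8 E2F-type motifs (TTTCCCGC, TTTCCCGG, TTTCGCGC, TTTCGCGG, TTTGCCGC, TTTGCCGG, TTTGGCGC and TTTGGCGG). A match was found in 4 of the 10 genes, against 3.59% of all 27443 promoters. It was found in 5 of the 6 *MCM2* to *MCM7* genes of the replicative helicase and in 0 of 15 genes of RNA-directed DNA methylation. Of the related genes described further on, 2 of 11 demethylases and demethylation cofactors and 1 of 8 methyl donor genes had a match. The other methyltransferases and VIM proteins, the H3K9 methylation genes and the silencing factors had none. The matches in the 4 genes are shown in the direction of the genome strand that carries the gene, from the RefSeq TAIR10.1 genome, with the motif in capitals and 11 bases on either side. Distances are counted from the TAIR10.1 gene start given with each, which differs from the end of the TAIR9 span given further on. Of the annotations found in both, 17.6% had the same start and end, so a window around the TAIR9 start would hold other bases.
*CMT3*, chr1:26253647-26253676, minus strand, 22 bases past the start at 26253687: aaacccatcacTTTGGCGCttatgtgacgc
*KYP*, chr5:4501366-4501395, plus strand, 15 bases past the start at 4501362, the opposite orientation of TTTCCCGG: agttgaaatcgCCGGGAAAgaaagaggaca
*CMT2*, chr4:10414179-10414208, plus strand, 238 bases before the start at 10414428: gggttttaggaTTTGGCGGtatgtgaagat
*ROS1*, chr2:15314819-15314848, minus strand, 30 bases before the start at 15314807: tccgtaaaactTTTCCCGCcaaccaaacga
A match is a string of letters and not a measured binding site, and in *MET1*, *VIM1*, *VIM3*, *DDM1*, *DRM2* and *DME* these letters were not in the window searched. Matches were found in genes with large and small differences between the tissues, from *CMT3* to *KYP*.

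All 10 genes were higher in dividing tissue. Their ratio of mean FPKM, dividing over non-dividing, ran from 2.18 for *DME* to 10.7 for *VIM1*, with a median of 4.08. In each of the 10, both dividing libraries lay above both non-dividing libraries, a pattern shown by 62.2% of the 17967 annotations tested. All 10 passed limma's test on log2(FPKM + 1) at a Benjamini-Hochberg adjusted p under 0.05, with adjusted p-values of 2.08e-04 to 9.39e-04 over all annotations with a mean of at least 1 FPKM. Higher calls made up 51.7% of all annotations tested and lower calls 18.2%, so the direction alone was shared with much of the transcriptome. The size of the difference set the genes further apart, with a median log2 fold change of 1.66 against 0.38 over all tested annotations. From 1.23% of tested annotations for *VIM1* to 18.2% for *DME* had a larger log2 fold change. Because the median annotation was itself higher in dividing tissue, the libraries were also rescaled to a common median, which brought the median of all annotations to 0.02, the median of the 10 genes to 1.32 and the shares called higher and lower to 31.0% and 30.7%, and all 10 genes still passed. The rise of the 10 genes accompanied that of the dividing-cell markers described above. In bulk tissue, fewer cells of a type and less RNA per cell cannot be told apart, and the part of cell composition in these differences was not tested.

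**Figure D1:**
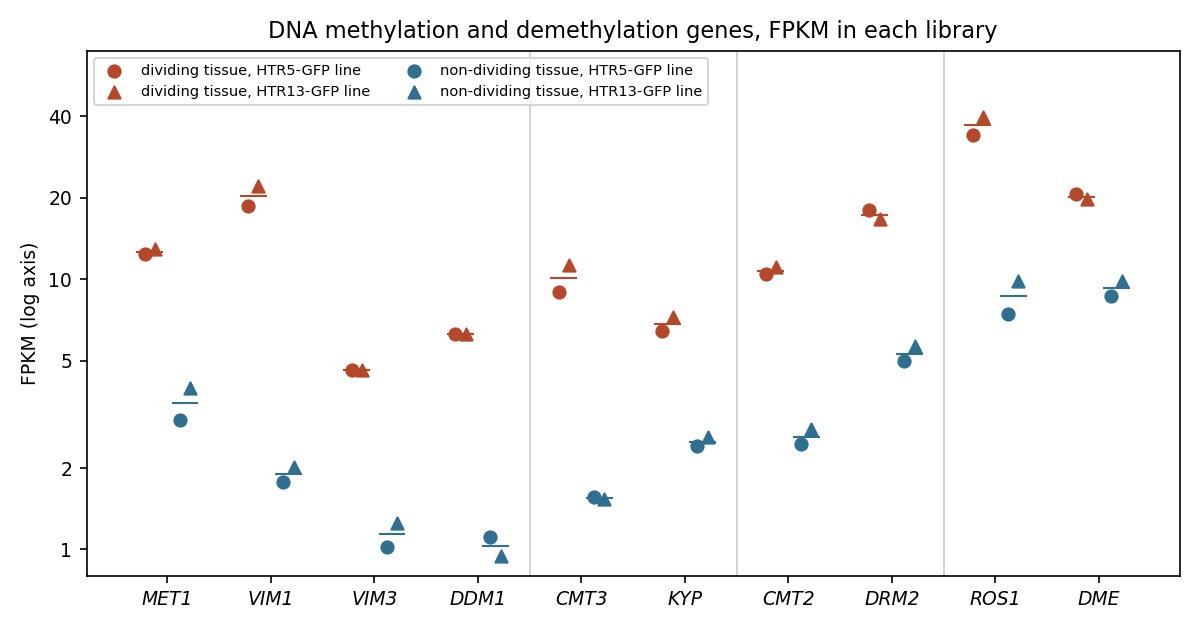
FPKM (log axis) of the 10 genes in each of the 4 libraries, with dividing tissue left of non-dividing tissue, circles for the HTR5-GFP line, triangles for the HTR13-GFP line, short bars for the mean and grey lines between roles. *DDM1* is drawn with the CG genes. Both dividing libraries lie above both non-dividing libraries for all 10 genes, with the widest gap for *VIM1* and the narrowest for *DME*.

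*MET1* (AT5G49160, chromosome 5, 19932230 to 19938369) encodes the methyltransferase that maintains CG methylation. It was at 12.4 and 12.9 FPKM in dividing tissue, against 3.01 and 3.97 FPKM in non-dividing tissue. The dividing libraries differed by 1.04-fold and the non-dividing ones by 1.32-fold, both well under the 3.62-fold ratio of the means. The log2 fold change was 1.61 ± 0.13 (SE, limma adjusted p = 6.49e-04), and 1.26 after rescaling.

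*VIM1* (AT1G57820, chromosome 1, 21414170 to 21417946) encodes an SRA-domain and RING-finger protein that binds half-methylated CG sites and is needed for MET1 to act there. It was at 18.7 and 22.0 FPKM in dividing tissue, against 1.78 and 2.02 FPKM in non-dividing tissue. It had the largest difference of the 10 genes, 10.5-fold in the HTR5-GFP line and 10.9-fold in the HTR13-GFP line. Its log2 fold change was 2.88 ± 0.12 (SE, limma adjusted p = 2.08e-04), and 2.55 after rescaling.

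*VIM3* (AT5G39550, chromosome 5, 15837210 to 15840638) encodes a related protein with the same domains. It was at 4.61 and 4.60 FPKM in dividing tissue, against 1.02 and 1.25 FPKM in non-dividing tissue. The dividing libraries were nearly equal, and the ratio of means was 4.05. Since its non-dividing level was close to the added 1, its log2 fold change of 1.39 ± 0.11 (SE, limma adjusted p = 6.43e-04) understates that ratio. *VIM3* was also the gene of the 10 whose reads are hardest to assign: of the 36-base stretches of its spliced transcript found in the TAIR10.1 genome, 74.5% occurred there once, against 99.5% to 100% for the other 9 genes. It shared 22.4% of its stretches with *VIM2* and 22.6% with *VIM4*, and 13 stretches with *VIM1*, so a share of its value may depend on how reads with several matches were divided. *VIM2* was at 2.48 and 2.998 FPKM in dividing tissue, against 1.33 and 1.65 FPKM in non-dividing tissue. *VIM4* was at 1.83 and 2.35 FPKM in dividing tissue, against 1.12 and 2.00 FPKM in non-dividing tissue. Both were closer between the tissues than *VIM3*.

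*DDM1* (AT5G66750, chromosome 5, 26648951 to 26653073) encodes a chromatin remodeller of the SWI2/SNF2 family that opens heterochromatin to the methyltransferases. It was at 6.25 and 6.28 FPKM in dividing tissue, against 1.11 and 0.943 FPKM in non-dividing tissue. Its non-dividing mean of 1.03 FPKM was the lowest of the 10 genes, and the ratio of means was 6.11. Its log2 fold change was 1.84 ± 0.11 (SE, limma adjusted p = 3.46e-04), and 1.57 after rescaling.

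*CMT3* (AT1G69770, chromosome 1, 26248318 to 26253585), the plant-specific chromomethylase of CHG sites, was at 8.94 and 11.3 FPKM in dividing tissue, against 1.56 and 1.54 FPKM in non-dividing tissue. Its dividing libraries differed by 1.26-fold, the widest spread within dividing tissue among the 10 genes, with the HTR13-GFP line higher. The tissues differed by 5.72-fold in the HTR5-GFP line and by 7.31-fold in the HTR13-GFP line. The log2 fold change was 2.11 ± 0.14 (SE, limma adjusted p = 3.87e-04), the second largest of the 10.

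*KYP* (AT5G13960, chromosome 5, 4501447 to 4506188), the H3K9 methyltransferase that acts in a loop with CMT3, was at 6.43 and 7.22 FPKM in dividing tissue, against 2.41 and 2.60 FPKM in non-dividing tissue. The difference was 2.67-fold in the HTR5-GFP line and 2.78-fold in the HTR13-GFP line, smaller than that of *CMT3* in both. Its log2 fold change was 1.16 ± 0.11 (SE, limma adjusted p = 8.71e-04), and 0.83 after rescaling.

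*CMT2* (AT4G19020, chromosome 4, 10414526 to 10421209), the chromomethylase of CHH sites in heterochromatin, was at 10.5 and 11.1 FPKM in dividing tissue, against 2.45 and 2.78 FPKM in non-dividing tissue. The ratio of means was 4.11, and the spread within either tissue was at most 1.14-fold. Its log2 fold change was 1.70 ± 0.10 (SE, limma adjusted p = 3.51e-04).

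*DRM2* (AT5G14620, chromosome 5, 4715253 to 4718704), the methyltransferase at the end of the small RNA pathway, was at 18.0 and 16.7 FPKM in dividing tissue, against 4.97 and 5.64 FPKM in non-dividing tissue. It was the most abundant of the 4 DNA methyltransferase transcripts in each of the 4 libraries. The ratio of means was 3.27, and the log2 fold change was 1.54 ± 0.10 (SE, limma adjusted p = 4.22e-04).

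*ROS1* (AT2G36490, chromosome 2, 15308021 to 15314272), the DNA glycosylase that removes methylated cytosine in vegetative tissue, was at 34.3 and 39.8 FPKM in dividing tissue, against 7.41 and 9.89 FPKM in non-dividing tissue. In both tissues the HTR13-GFP line was higher, by 1.16-fold in dividing and by 1.33-fold in non-dividing tissue. The tissues differed by 4.63-fold in the HTR5-GFP line and by 4.03-fold in the HTR13-GFP line, and the log2 fold change was 1.99 ± 0.16 (SE, limma adjusted p = 5.95e-04).

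*DME* (AT5G04560, chromosome 5, 1309193 to 1318401), a glycosylase of the same family best known from the central cell of the female gametophyte, was at 20.6 and 19.7 FPKM in dividing tissue, against 8.63 and 9.87 FPKM in non-dividing tissue. It had the smallest difference of the 10 genes, 2.38-fold in the HTR5-GFP line and 2.00-fold in the HTR13-GFP line. Its log2 fold change was 1.05 ± 0.10 (SE, limma adjusted p = 9.39e-04), and 0.67 after rescaling. Its non-dividing mean of 9.25 FPKM was the highest of the 10 genes, though its libraries overlapped those of *ROS1* there.

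**Figure D2:**
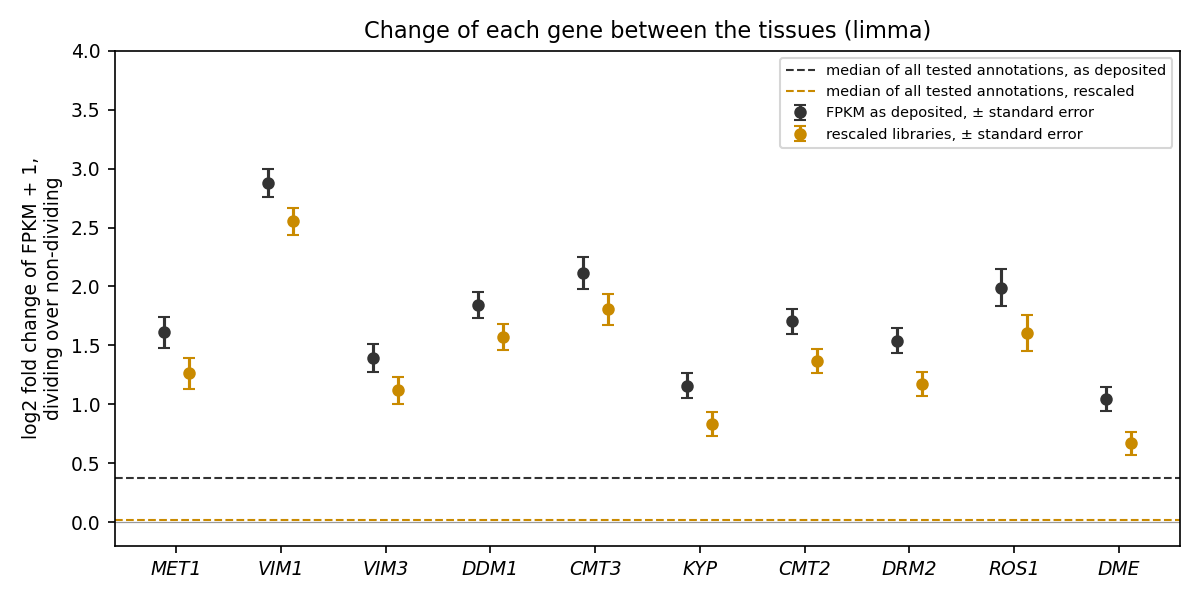
Log2 fold change of FPKM + 1, dividing over non-dividing, of the 10 genes as deposited and after rescaling the libraries, with bars for the limma standard error and dashed lines for the median of all tested annotations. All 10 lie above both medians, from *DME* at 1.05 to *VIM1* at 2.88 as deposited.

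A difference of at least 2-fold in each line was found in 9 of the 10 genes, against 21.2% of tested annotations, and *DME* narrowly missed it in the HTR13-GFP line. A difference of at least 4-fold in each line was found in 4 of the 10 (*VIM1*, *DDM1*, *CMT3* and *ROS1*), against 6.51% of tested annotations. These shares, and the ratios and sums that follow, are of FPKM as deposited. After rescaling, *ROS1* fell under 4-fold in each line, while *VIM1*, *DDM1* and *CMT3* stayed above it. Rescaled *ROS1* was at 30.4 and 34.9 FPKM in dividing tissue, against 8.73 and 11.5 FPKM in non-dividing tissue. The shares of all annotations were not counted after rescaling. The genes of each role spanned a range: in CG maintenance from 3.62-fold for *MET1* to 10.7-fold for *VIM1*, outside CG from 2.72-fold for *KYP* to 6.51-fold for *CMT3*, and in removal from 2.18-fold for *DME* to 4.29-fold for *ROS1*. The methyltransferases *MET1*, *CMT2* and *CMT3* were summed without *DRM2*. Their summed FPKM was 31.8 and 35.2 in dividing tissue, against 7.02 and 8.30 in non-dividing tissue. The summed FPKM of *ROS1* and *DME* was 54.9 and 59.5 in dividing tissue, against 16.04 and 19.8 in non-dividing tissue. Both sums were higher in dividing tissue, by 4.37-fold and by 3.20-fold. The 10 genes together summed to 141 and 152 FPKM in dividing tissue, against 34.4 and 40.5 FPKM in non-dividing tissue.

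The order of levels changed between the tissues. In dividing tissue, *ROS1* had the highest mean FPKM (37.1), followed by *VIM1* (20.4), *DME* (20.1), *DRM2* (17.3), *MET1* (12.6), *CMT2* (10.8), *CMT3* (10.1), *KYP* (6.83), *DDM1* (6.27) and *VIM3* (4.60). The libraries of *VIM1* and *DME* overlapped there, as did those of *CMT2* and *CMT3*, so these neighbours were not separated by their spread. In non-dividing tissue the order was *DME* (9.25), *ROS1* (8.65), *DRM2* (5.30), *MET1* (3.49), *CMT2* (2.62), *KYP* (2.51), *VIM1* (1.90), *CMT3* (1.55), *VIM3* (1.14) and *DDM1* (1.03), with overlaps between *DME* and *ROS1*, between *CMT2* and *KYP* and between *VIM3* and *DDM1*. By mean FPKM, *VIM1* was in place 2 in dividing tissue, where it was not separated from *DME*, and in place 7 in non-dividing tissue.

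Ratios between genes within one library do not depend on the scaling of that library. *VIM1* was 4.06 and 4.79 times as abundant as *VIM3* in dividing tissue, against 1.74 and 1.62 times in non-dividing tissue. *VIM1* over *MET1* was 1.51 and 1.71 in dividing tissue, against 0.591 and 0.508 in non-dividing tissue. The order of the methyltransferase and its cofactor was therefore opposite in the tissues, in both lines. *CMT3* over *KYP* was 1.39 and 1.56 in dividing tissue, against 0.648 and 0.593 in non-dividing tissue. *CMT3* over *CMT2* was 0.853 and 1.02 in dividing tissue, against 0.638 and 0.554 in non-dividing tissue. Both ratios of *CMT3* were higher in dividing tissue, the one to its histone partner by the wider margin. *ROS1* over *DME* was 1.67 and 2.02 in dividing tissue, against 0.859 and 1.00 in non-dividing tissue. *ROS1* over *MET1*, the removing enzyme over the CG-maintaining one, was 2.77 and 3.09 in dividing tissue, against 2.46 and 2.49 in non-dividing tissue. *ROS1* transcripts thus outnumbered *MET1* transcripts per length in all 4 libraries, with a small gap between the tissues. *DDM1* over *MET1* was 0.505 and 0.487 in dividing tissue, against 0.368 and 0.237 in non-dividing tissue. *DRM2* over *MET1* was 1.45 and 1.29 in dividing tissue, against 1.65 and 1.42 in non-dividing tissue, and here the tissues overlapped. In all, 7 of the 8 ratios did not overlap between the tissues, a share near the 83.7% of all pairs of tested annotations above 0 in every library, and so not a result about these genes. The smallest two-sided p of an exact permutation test with 2 libraries in each tissue is 0.333, so none of these differences can pass that test. No other test was run on the ratios.

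**Figure D3:**
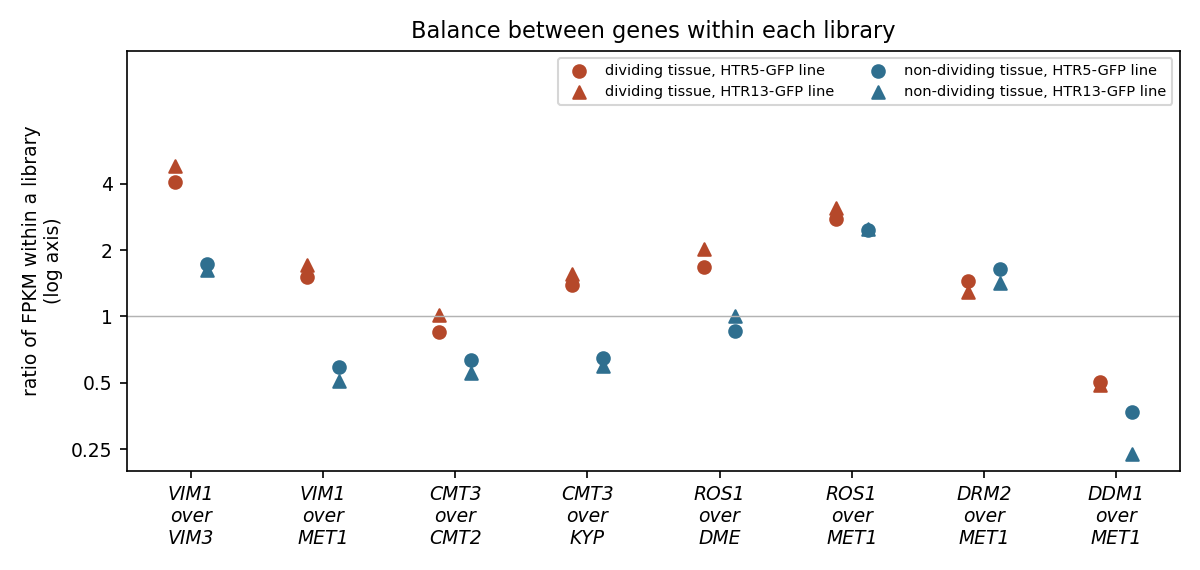
Ratio of FPKM between pairs of the 10 genes within each library (log axis), with dividing tissue left of non-dividing tissue, circles for the HTR5-GFP line and triangles for the HTR13-GFP line. *VIM1* over *MET1* and *CMT3* over *KYP* lie above 1 in both dividing libraries and below 1 in both non-dividing libraries, and *DRM2* over *MET1* overlaps between the tissues.

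The transgenic lines were compared next. With tissue as a term in the fit, limma called 0 of the 10 genes between the HTR5-GFP line and the HTR13-GFP line. Over all tested annotations, the share called was 0.223%. With so few calls anywhere, a count of 0 is not a result about these genes. At an unadjusted p under 0.05, 844 of the 17967 tested annotations were higher in the HTR5-GFP line and 1162 lower. Of the 10 genes, 1 was under that threshold, and beside those numbers this count is not a result about these genes either. That gene was *ROS1*, with a log2 difference of -0.29, HTR5-GFP minus HTR13-GFP (limma adjusted p = 0.354). The log2 differences of the other 9 lay between that value and 0.06 for *DDM1*. Levels were higher in the HTR13-GFP line for 7 of the 10 genes in dividing tissue and for 8 of the 10 in non-dividing tissue. The same share was not counted over all annotations, so these counts are not a result about the 10 genes. The median log2 difference was -0.11 for the 10 genes and -0.02 over all tested annotations. With 1 library per line and tissue, the line cannot be told apart from the plants and the library made from them.

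Related genes were described next, from 5 lists holding 42 genes, of which 35 had a mean of at least 1 FPKM. Of these 35, 27 were higher in dividing tissue and 0 lower by limma (28 higher and 0 lower at an unadjusted p under 0.05), with a median log2 fold change of 0.71. Over all tested annotations, 51.7% were called higher and 18.2% lower. After rescaling, 17 of the 35 were higher and 4 lower, against 31.0% and 30.7% of all tested annotations. No related gene called in one direction as deposited was called in the other after rescaling.

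The closest relatives of the 10 genes, the other methyltransferases and VIM proteins, were mostly weakly transcribed. Of 11 such genes, *MEE57* (also called *MET3*), *CMT1*, *DRM1* and *VIM5* were listed at 0 in all 4 libraries. Another 2 lay under a mean of 1 FPKM. Of the 5 tested, 3 were called higher in dividing tissue, a share near the 51.7% of all annotations and so not a result about this list. Those 3 were *DNMT2*, best known as a tRNA methyltransferase (log2 fold change 1.07), *DRM3*, a partner of DRM2 without catalytic activity (1.01), and *VIM2* (0.59), which was not called after rescaling. *VIM2* shared 72.5% of its 36-base stretches with *VIM4*, so its value is uncertain. *VIM4* and *VIM6* did not pass, with log2 fold changes of 0.29 and 0.03. All 5 lay below the median of the 10 genes.

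Among 7 genes of H3K9 methylation and its removal, 4 were higher and 0 lower by limma (the same counts at an unadjusted p under 0.05), with a median of 0.62. A share of 4 in 7 is near the 51.7% called higher over all annotations, and is not a result about this list. The largest was *SUVH5*, an H3K9 methyltransferase that overlaps in function with KYP, with a log2 fold change of 0.81 as deposited and 0.59 after rescaling. It was the one gene of the list still called higher after rescaling, when *SUVH9*, which binds methylated DNA and recruits the small RNA pathway, and *IBM1*, the H3K9 demethylase that protects genes from CHG methylation, were called lower at -0.49 and -0.40. As deposited these 2 had values of -0.10 and -0.04 and did not pass. With quantile normalization, *SUVH5* was not called (log2 fold change 0.35, limma adjusted p = 0.0576), and 0 genes of the list were higher and 3 lower. *KYP* had a larger log2 fold change of FPKM + 1 (1.16) than *SUVH5*, but a smaller ratio of mean FPKM (2.72, against 2.88 for *SUVH5*), so their order depends on the added 1.

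Of the other demethylases and the cofactors of demethylation, 10 of 10 tested were called higher as deposited, against 51.7% of all annotations, and 7 of 10 after rescaling, against 31.0%. Their median log2 fold change was 0.99 as deposited and 0.64 after rescaling. *DML2*, another glycosylase of the ROS1 family, was at 12.1 and 12.3 FPKM in dividing tissue, against 3.68 and 3.44 FPKM in non-dividing tissue (1.53). The list held 11 genes, and *DML3*, of the same family, lay under the filter with the opposite order. *DML3* was at 0.252 and 0.128 FPKM in dividing tissue, against 0.691 and 0.285 FPKM in non-dividing tissue. *IDM1*, the histone acetyltransferase that recruits ROS1 to some loci, had a log2 fold change of 1.58. *IDM2*, its partner, was at 3.74 and 5.27 FPKM in dividing tissue and listed at 0 in both non-dividing libraries. *IDM1* and *IDM2* each overlap another annotation, so reads of the neighbour may contribute to these values. AT3G14890, annotated in RefSeq as a phosphoesterase, was at 9.87 and 8.58 FPKM in dividing tissue, against 1.29 and 1.25 FPKM in non-dividing tissue (2.17).

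The methyl donor cycle supplies S-adenosylmethionine. Of its 8 genes, limma called 6 higher and 0 lower as deposited (the same at an unadjusted p under 0.05), against 51.7% and 18.2% of all annotations. After rescaling 4 were higher and 2 lower, against 31.0% and 30.7% of all annotations. *ADK1*, an adenosine kinase that clears a product of the cycle, had the largest log2 fold change of the list (1.60), followed by *SAHH2*, an S-adenosylhomocysteine hydrolase (1.37). The S-adenosylmethionine synthetase *SAM1* and the methionine synthase *MS1* did not pass as deposited, at -0.20 and 0.03, and were called lower after rescaling, at -0.61 and -0.38. Of 5 silencing factors that act beside methylation, 4 were higher as deposited and 3 after rescaling, with *MBD5*, a methyl-CpG-binding domain protein, at 1.41 and *MORC6*, a chromatin-compacting ATPase, at 1.21. *MOM1*, which silences without changing methylation, had a log2 fold change of 0.26 and did not pass (limma adjusted p = 0.0607).

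**Figure D4:**
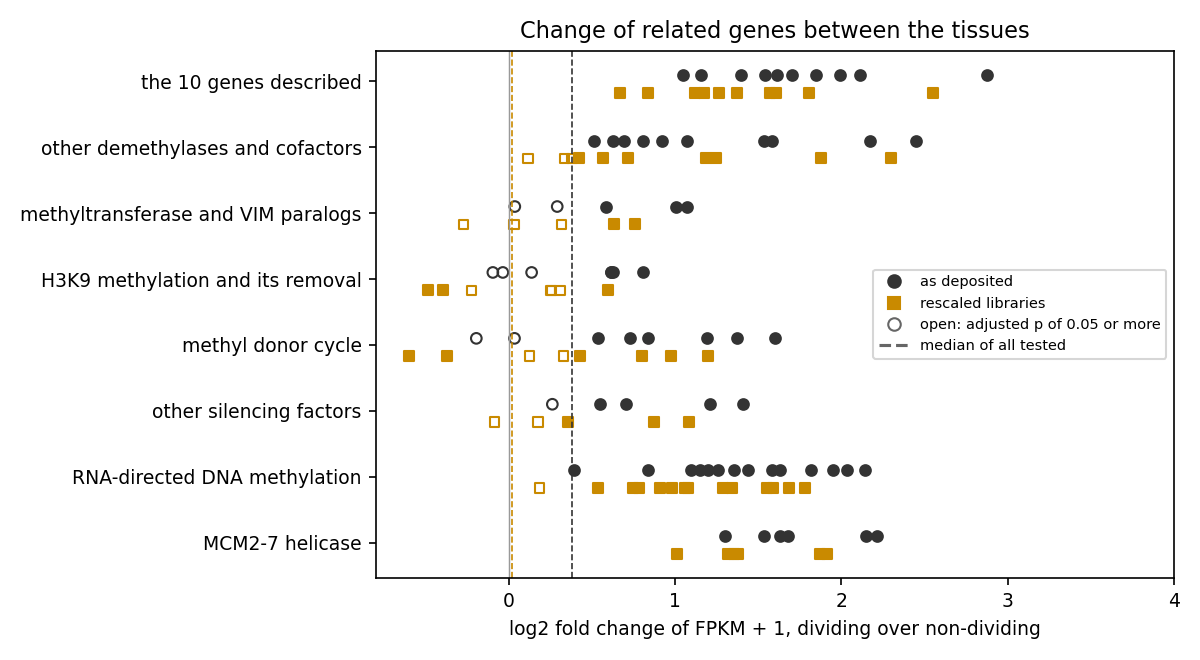
Log2 fold change of FPKM + 1, dividing over non-dividing, of the 10 genes, the 5 related lists, the genes of RNA-directed DNA methylation and *MCM2* to *MCM7*, as deposited (circles) and after rescaling (squares), with open symbols for genes that did not pass and dashed lines for the median of all tested annotations. All 10 genes are filled symbols in both scalings, whereas H3K9 methylation and the methyl donor cycle hold genes on either side of 0 after rescaling.

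The 10 genes, whose log2 fold changes ran from 1.05 to 2.88, were set beside 2 neighbouring groups of genes. Over all tested annotations, 51.7% were called higher as deposited and 31.0% after rescaling. The small RNA pathway that guides DRM2 had 14 of 15 genes above the filter, all 14 higher as deposited and 13 after rescaling, with a median log2 fold change of 1.40 and a range of 0.39 to 2.14. The exception after rescaling was *NRPD1*, the largest subunit of RNA polymerase IV, which with the transgenic line as a block also missed the threshold (limma adjusted p = 0.0427 without the block and 0.0565 with it). The 6 *MCM* genes of the replicative helicase, which is loaded at replication origins, were all higher, with a median of 1.66 as deposited and 1.37 after rescaling and a range of 1.30 to 2.22. Their summed level was 41.8 and 38.0 FPKM in dividing tissue, against 7.24 and 7.17 FPKM in non-dividing tissue. On this scale 5 of the 10 genes exceeded the *MCM* median, but by the ratio of mean FPKM, which has no added 1, the *MCM* median was 5.66, above the median of 4.08 of the 10 genes, and 3 of the 10 exceeded it. *VIM1* alone exceeded the largest *MCM* value on both scales. These comparisons rest on the same 4 libraries, and no difference between the groups was tested.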

How the data were processed

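Poly-A RNA of dividing and non-dividing tissue was sequenced by the authors on an Illumina instrument, from 10 µg of total RNA. Per the labels and the study's methods, reads were aligned to TAIR9 with TopHat 1.2.0 and Bowtie 0.12.7, and Cufflinks 0.9.3 gave the FPKM values that the authors deposited, 1 column per library. SAMtools 0.1.13 and CASAVA 1.7 are named in the submitters' processing notes. All 4 sample columns were used and 0 others were left out. The FPKM values are normalised for transcript length and library size, and read counts could not be recovered from them, so the precision behind single values is unknown. FPKM sums were 700884 to 715002 per library, with 13084 to 14269 of 33476 annotations listed at 0.

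Annotations with a mean of at least 1 FPKM (17967) were tested on log2(FPKM + 1) with limma 3.58.1 (lmFit and eBayes with a trend, R 4.3.3), dividing over non-dividing, with two-sided p-values adjusted by Benjamini-Hochberg and called under 0.05. The added 1 lowers the fold change of weakly transcribed genes. Libraries were rescaled by the median ratio to each annotation's arithmetic mean over the libraries, taken across 18569 annotations above 0 in every library. The factors were 1.13 and 1.14 for the dividing libraries, against 0.848 and 0.859 for the non-dividing ones. Replicate numbers pair libraries of the same transgenic line. Deviations from the tissue means of same-line libraries had a Pearson correlation of 0.257 across annotations, which are not independent replicates. The alternatives were that line as a block, other pseudocounts and filters, both other scalings and leaving out each library.

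All 10 genes are given with every value. From the related lists, genes past the threshold could be named, largest first, and genes listed at 0. The members and lists were chosen with earlier results of these data known. The test was tested on simulated data. Gene positions are TAIR9. Motifs and 36-base stretches were read from the RefSeq TAIR10.1 genome by gene identifier. Of the protein-coding annotations, 97.4% were found there by identifier.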

Additional observations from a re-analysis of the deposited data

Results flagged for a closer look

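None of the 10 genes was flagged. Among the related genes, 3 had ratios of dividing to non-dividing FPKM on opposite sides of 1 in the HTR5-GFP line and the HTR13-GFP line. *VIM6*, a relative of *VIM1*, was at 1.74 and 5.28 FPKM in dividing tissue, against 3.59 and 2.58 FPKM in non-dividing tissue. Its ratio stood at 0.485 for HTR5-GFP plants and at 2.05 for HTR13-GFP plants, and it overlaps another annotation. The ratio of *IBM1*, the H3K9 demethylase gene, stood at 1.05 for HTR5-GFP plants and at 0.894 for HTR13-GFP plants. The ratio of *MS1*, a methionine synthase gene, stood at 0.911 for HTR5-GFP plants and at 1.15 for HTR13-GFP plants. With 1 library per line and tissue, these differences between the lines were not tested.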

How the results depend on the processing

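All 117 values of the 10 genes under the alternatives kept their direction and stayed past the threshold. Their log2 fold changes ran from 0.67 to 3.35, with a highest limma adjusted p of 0.00439 with all libraries and of 0.0318 when a library was left out, where the lone library of a tissue is assumed to vary like the others. With a filter of 5 FPKM, *VIM3*, *DDM1* and *KYP* were not tested. Over all annotations, 9282 were called higher and 3271 lower. With the transgenic line as a replicate block these counts were 9723 and 3625, and the adjusted p-values of the 10 genes were 8.72e-06 to 2.22e-04. The block changed no call of the 10 genes or the 5 related lists. Rescaling gave 5562 higher and 5522 lower, rescaling with the block 5986 and 5963, and quantile normalization 5804 and 5184. Leaving out each library in turn gave 5661 to 8624 higher and 1868 to 2999 lower. The lower counts came without the dividing library of the HTR5-GFP line (5947 and 1877) or of the HTR13-GFP line (5661 and 1868). Of the related genes, 27 were higher and 0 lower. Rescaling gave 17 higher and 4 lower, rescaling with the block 18 and 4, quantile normalization 19 and 4, and leaving out each library 18 to 26 higher and 0 lower. What lies behind the general shift between the scalings was not tested. With 2 libraries per tissue and no counts, the error of genes near 1 FPKM, *VIM3* and *DDM1* in non-dividing tissue among them, is known least.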

Other observations

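Under the filter of a mean of 1 FPKM, 4 genes of these pathways had values above 0 in some libraries and entered no test. *AGO6*, an Argonaute of the small RNA pathway, was at 0.757 and 0.651 FPKM in dividing tissue, against 0.181 and 0.113 FPKM in non-dividing tissue. *MET2A*, a relative of *MET1*, was at 0.470 and 0.602 FPKM in dividing tissue, against 0.167 and 0.181 FPKM in non-dividing tissue. AT4G08990, of the same methyltransferase family, was at 0.0827 and 0.0662 FPKM in dividing tissue and listed at 0 in both non-dividing libraries. *DML3*, a glycosylase gene of the ROS1 family, had the opposite order, at 0.252 and 0.128 FPKM in dividing tissue, against 0.691 and 0.285 FPKM in non-dividing tissue. Of the other markers, *SAG13* was at 2.21 and 1.94 FPKM in dividing tissue, against 4.89 and 2.82 FPKM in non-dividing tissue, and the root gene *WOX5* was at 1.03 and 0.982 FPKM in dividing tissue and listed at 0 in both non-dividing libraries. *AG* was listed at 0 in 3 of the 4 libraries.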
